A study of Homo sapiens with 12 samples.

Results

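The nuclear genes of the mitochondrial ribosome were examined in 12 RNA-seq libraries of the human lung cancer lines H1299 and H1703, treated with SAHA, an inhibitor of histone deacetylases, or with vehicle. The members are the protein-coding rows whose symbol starts with MRPL or MRPS and a digit, 78 of the 19817 protein-coding and 58302 total genes in each deposited table. All 78 passed the filter on low counts in every comparison. Members were sorted by what is known of their place in the ribosome. The large subunit held 29 members with a bacterial counterpart and 21 particular to mitochondria, the small subunit 16 and 10, and 2 (MRPL55 and MRPS36) were not classed. MRPS30 and MRPS18A carry small-subunit symbols but belong to the large subunit. MRPS36 is also known as a subunit of the 2-oxoglutarate dehydrogenase complex.

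The mitochondrial ribosome translates only the few messages that mitochondrial DNA encodes, all of them for subunits of the respiratory chain and ATP synthase. Its ribosomal RNAs come from mitochondrial DNA, whereas every protein is encoded in the nucleus, made in the cytosol and imported. Tumour cells that rely on oxidative phosphorylation need this ribosome, and assembly of each subunit requires its proteins in matched amounts.

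Each line contributed 3 libraries from cells kept in DMSO and 3 from cells given SAHA, which makes 4 groups. Both lines are established human non-small-cell lung cancer lines labelled as epithelial, with no engineered allele named. SAHA (vorinostat) blocks zinc-dependent histone deacetylases. The protocol lists exposure for 24 h at 0, 2.5, 10 or 40 µM with 0.1% DMSO as the vehicle, without saying which dose was sequenced, so no value below belongs to a stated dose. The labels do not say whether the replicates were separately grown, and the p-values thus reflect library-to-library spread that may be technical. Each library is a bulk sample, in which fewer cells and less RNA per cell cannot be told apart.

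Library totals ran from 14.4M to 19.4M counts. KRT8 and KRT18, keratins of simple epithelia, were well expressed in every group, with group means of 210 to 1540 and 383 to 835 CPM (the count scaled to the library total times its TMM factor). EPCAM stayed at or below 2.81 CPM in all 4 groups, and CDH1 was at 0 in H1299 with DMSO, so the epithelial label is borne out only in part. Summed epithelial markers, mostly KRT8 and KRT18, went from 584-606 to 1350-1580 CPM with SAHA in H1299 and from 1910-2130 to 2420-2730 CPM in H1703. The list did not move as one in H1703. There KRT19 went from a mean of 15.9 to 309 CPM, whereas CDH1 went down from 92.4 to 32.1 and EPCAM from 2.81 to 2.16 CPM. The leukocyte gene PTPRC reached at most 0.0657 CPM. Summed fibroblast markers went from 1.06-2.15 to 33.2-46.1 CPM with SAHA in H1299 and from 62.5-72.1 to 112-125 CPM in H1703, almost all of it COL1A1 and LUM. Summed endothelial markers went from 0.679-0.768 to 4.60-5.97 CPM and from 0.275-0.511 to 3.26-4.27 CPM, and summed blood markers, nearly all CD68, from 20.7-42.3 to 17.2-19.9 CPM and from 13.6-18.7 to 39.6-50.8 CPM. The part of these markers in the results was not tested.

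As a whole the members took up a smaller share of the RNA after SAHA in H1703, and less clearly in H1299. In H1703 their summed counts made up 0.505, 0.491 and 0.498% of the DMSO libraries and 0.382, 0.396 and 0.346% of the SAHA libraries. Every treated library of H1703 lay below every control, and the exact two-sided permutation p of 0.1 is the smallest that 3 against 3 allows. In H1299 the shares were 0.588, 0.624 and 0.589% with DMSO and 0.534, 0.527 and 0.598% with SAHA. These overlapped, since the third SAHA library reached the control range (exact permutation p = 0.3). Mitochondrially encoded genes moved the other way: in H1299 their share was 2.12 ± 0.138% (SD, n = 3) under vehicle and 4.10 ± 0.121% after treatment, and in H1703 it was 5.88 ± 0.418% and then 9.57 ± 1.19%. Taking these genes out of the totals left the members at 0.613 and 0.577% in H1299, and at 0.529 and 0.414% in H1703. The H1703 SAHA library with the lowest member share, the third, also had the highest mitochondrially encoded share, 10.9%.

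**Figure D1:**
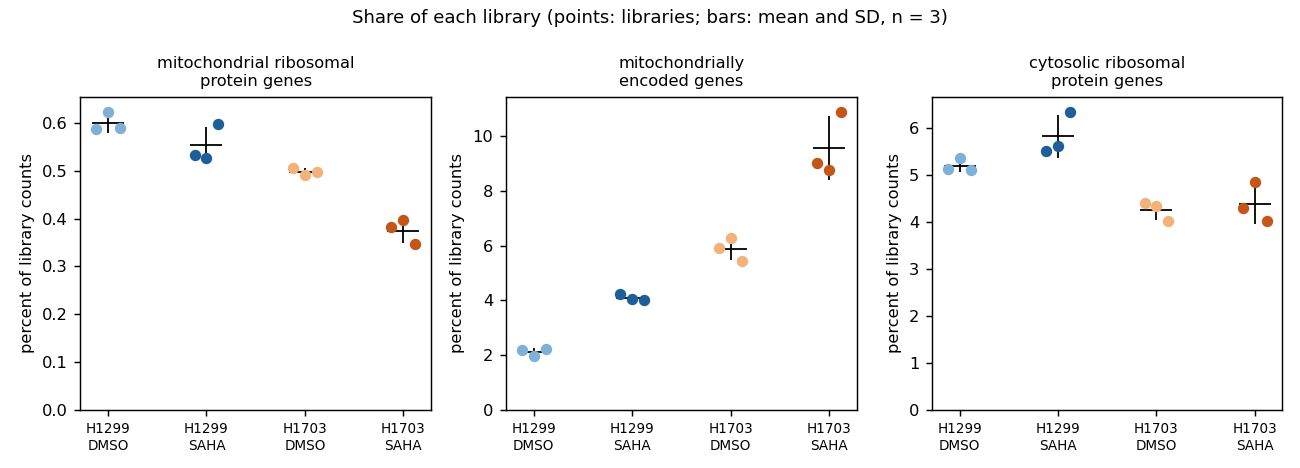
Percent of each library's counts taken by the members (left), by mitochondrially encoded genes (middle) and by cytosolic ribosomal protein genes (right), with points for libraries and bars for the mean and SD of 3. The member share fell from a mean of 0.498 to 0.375% in H1703, while the mitochondrially encoded share rose in both lines.

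Gene by gene, SAHA lowered more members than it raised, and most changes were modest. In H1299, 29 members were lower, 17 higher and 32 not called, where a call is an adjusted p under 0.05 in edgeR's quasi-likelihood test. Over all 17277 genes tested 63.8% were called, 33.3% higher and 30.4% lower, against 21.8% and 37.2% of the members. In H1703, 34 members were lower, 8 higher and 36 not called. Of all 17273 genes tested there, 67.4% were called, 34.7% higher and 32.6% lower, against 10.3% and 43.6% of the members. Among genes at or above the level of the lowest member, 27% were higher and 39.4% lower in H1299, close to the members, and 32.7% were higher and 37.9% lower in H1703. The median log2 fold change of the members was -0.21 in H1299 and -0.20 in H1703, beside 0.02 over all genes in each line. Over genes at or above the level of the lowest member the median was -0.13 in H1299 and -0.06 in H1703. The H1299 member median moved to -0.10 without SAHA replicate 2 and to -0.30 without SAHA replicate 3. Calls of 2-fold or more numbered only 5 in H1299 and 7 in H1703, all lower, where 30.4% and 34.4% of all genes passed that bar.

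**Figure D2:**
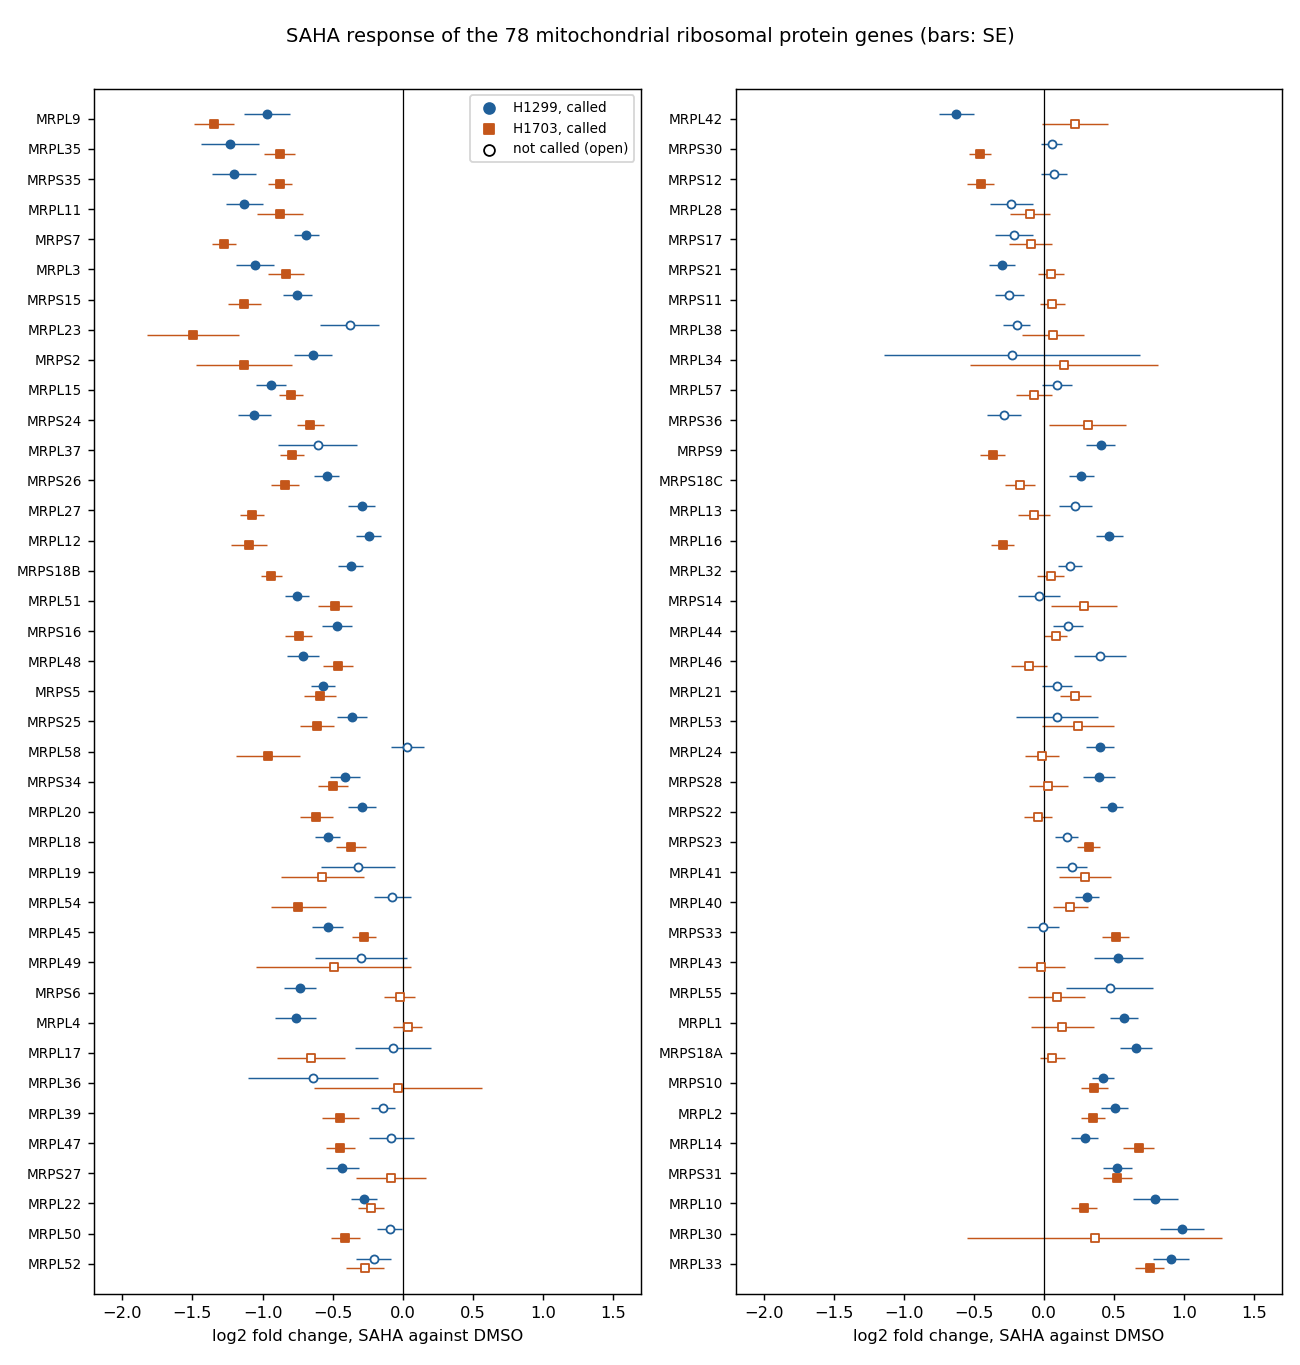
The log2 fold change of each of the 78 members with SAHA in H1299 (blue circles) and H1703 (orange squares), with bars for 1 SE and filled symbols for called genes, ordered by the sum of both values. MRPL9 and MRPL35 stand at the low end and MRPL33 at the high end, and MRPL34, MRPL36, MRPL49 and MRPL30 in H1703 have wide bars.

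By subunit, 15 of the 50 large-subunit members were lower in H1299 (30%, beside 30.4% of all genes) and 11 higher (median -0.12). Of the 26 small-subunit members 14 were lower (53.8%) and 6 higher (median -0.33). Among genes at or above the level of the lowest member, 39.4% were lower in H1299 and 37.9% in H1703. In H1703, where 32.6% of all genes were lower, the counts were 21 lower (42%) and 4 higher for the large subunit (median -0.25), and 13 lower (50%) and 4 higher for the small subunit (median -0.27). Of the 21 large-subunit proteins particular to mitochondria, 4 were lower and 3 higher in H1299, and in H1703 all 9 that were called were lower. The 29 large-subunit proteins with a bacterial counterpart gave 11 lower and 8 higher in H1299, and 12 lower and 4 higher in H1703. Small-subunit proteins with a counterpart gave 8 lower and 4 higher of 16, then 8 and 1. Those particular to mitochondria gave 6 lower and 2 higher of 10, then 5 and 3. No difference between these groups was tested.

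Among large-subunit members lowered in H1299, MRPL35 (ENSG00000132313, chromosome 2, 86199355 to 86213794, GRCh38), a small protein with a bacterial counterpart, had the largest fold. Its CPM was 42.2, 40.4 and 44 with DMSO and 13.7, 25.4 and 16.9 with SAHA, well apart. The log2 fold change was -1.23 ± 0.21 (SE, adjusted p = 0.00107), and H1703 gave -0.88 ± 0.11 (adjusted p = 7.52e-05). MRPL11, whose bacterial counterpart sits at the base of the stalk where translation factors dock, went from 59.2, 63.3 and 55.1 CPM to 25.2, 25.1 and 33.8 in H1299. In H1703 it went from 45.2, 43.8 and 45.0 to 26.2, 28.5 and 17.5 CPM. The groups did not overlap in either line, and the log2 fold changes were -1.13 ± 0.13 and -0.87 ± 0.16. MRPL3, counterpart of an early-assembling protein near the peptidyl transferase centre, fell by 1.06 ± 0.14 in H1299 and by 0.83 ± 0.13 in H1703 on the log2 scale.

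In the small subunit, MRPS35, a protein particular to mitochondria, was among the most abundant members by count in H1299 and fell far. Its libraries read 163, 168 and 166 CPM with DMSO and 54.9, 82.1 and 86.7 with SAHA. H1703 went from 123, 131 and 131 CPM to 63.7, 68.8 and 74.9. Treated and control libraries were apart in both lines, with log2 fold changes of -1.20 ± 0.16 and -0.88 ± 0.08. MRPS24, counterpart of a protein at the mRNA entry site, fell by 1.06 ± 0.12 and by 0.66 ± 0.10 on the log2 scale.

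H1703 had its own ranking. MRPS7 (ENSG00000125445, chromosome 17, 75261674 to 75266373), whose bacterial counterpart starts the assembly of the small subunit's head, read 139, 133 and 137 CPM with DMSO and 51.2, 61.2 and 54.4 with SAHA. That is a 2.42-fold drop (log2 fold change -1.27 ± 0.09, adjusted p = 1.15e-06). In H1299 the same gene went from 96.4, 97.5 and 96.4 CPM to 58.4, 59.4 and 69.4, a smaller drop of -0.69 ± 0.09. MRPL9 read 43.0, 40.4 and 47.6 CPM with DMSO and 13.5, 19.5 and 17.8 with SAHA in H1703. Its log2 fold change was -1.35 ± 0.14 there and -0.97 ± 0.17 in H1299. MRPS15 fell by 1.13 ± 0.12 and MRPS2 by 1.13 ± 0.34 on the log2 scale in H1703. The MRPS2 libraries were scattered: 103, 75 and 67.9 CPM with DMSO and 53.1, 23.8 and 34.1 with SAHA. Its call was lost without DMSO replicate 1 (adjusted p = 0.0737), DMSO replicate 2 (0.0637) or SAHA replicate 3 (0.102). MRPL23, counterpart of a protein at the exit of the peptide tunnel, had the largest H1703 value, -1.49 ± 0.33, from 38.3, 37.7 and 26.5 CPM to 9.33, 18.1 and 8.41. In H1299 it was not called (-0.38 ± 0.21) unless SAHA replicate 3 was left out (-0.65, adjusted p = 0.0151).

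Genes that rose were fewer. MRPL33, counterpart of a small bacterial protein of the large subunit, rose in both lines. It read 26.1, 26.2 and 28.1 CPM with DMSO and 43.4, 51.6 and 61.0 with SAHA in H1299, then 58.7, 54.4 and 57.3 and 89.5, 110 and 84.5 in H1703. No treated library overlapped a control, and the log2 fold changes were 0.90 ± 0.13 (adjusted p = 0.000242) and 0.75 ± 0.10 (adjusted p = 0.000149). The row spans 27771717 to 27988087 on chromosome 2 and shares 324 exon bases, on the same strand, with BABAM2, which was itself higher by 0.66 and 0.86, and how the authors divided reads between these rows is not stated. MRPS31, a small-subunit protein particular to mitochondria, rose by 0.52 ± 0.10 in each line. MRPS10, counterpart of a protein of the small subunit's head, rose by 0.42 ± 0.08 and 0.36 ± 0.10.

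MRPL10 holds the stalk on the large subunit. It went from 71.4, 49.9 and 74.4 CPM to 105, 113 and 135 in H1299 (log2 fold change 0.79 ± 0.16), and from 100, 106 and 90.0 to 128, 109 and 121 in H1703 (0.29 ± 0.09, adjusted p = 0.0216). The H1703 libraries nearly touched, and that call was lost without DMSO replicate 1 (adjusted p = 0.0615), DMSO replicate 3 (0.106) or SAHA replicate 1 (0.0851). MRPL14, which lies at a contact between the subunits, rose by 0.67 ± 0.11 in H1703 and by 0.29 ± 0.10 in H1299. The H1299 call ended without DMSO replicate 1 (adjusted p = 0.117), DMSO replicate 3 (0.115), SAHA replicate 2 (0.0750) or SAHA replicate 3 (0.0876). MRPL2 was the sixth member called higher in both lines, with 0.50 and 0.35, named because it completes that count. MRPL1, of the mobile stalk where spent tRNA leaves, and MRPS18A were higher in H1299 alone by call, at 0.57 ± 0.10 and 0.65 ± 0.12, and gave 0.13 ± 0.22 and 0.06 ± 0.09 in H1703.

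**Figure D3:**
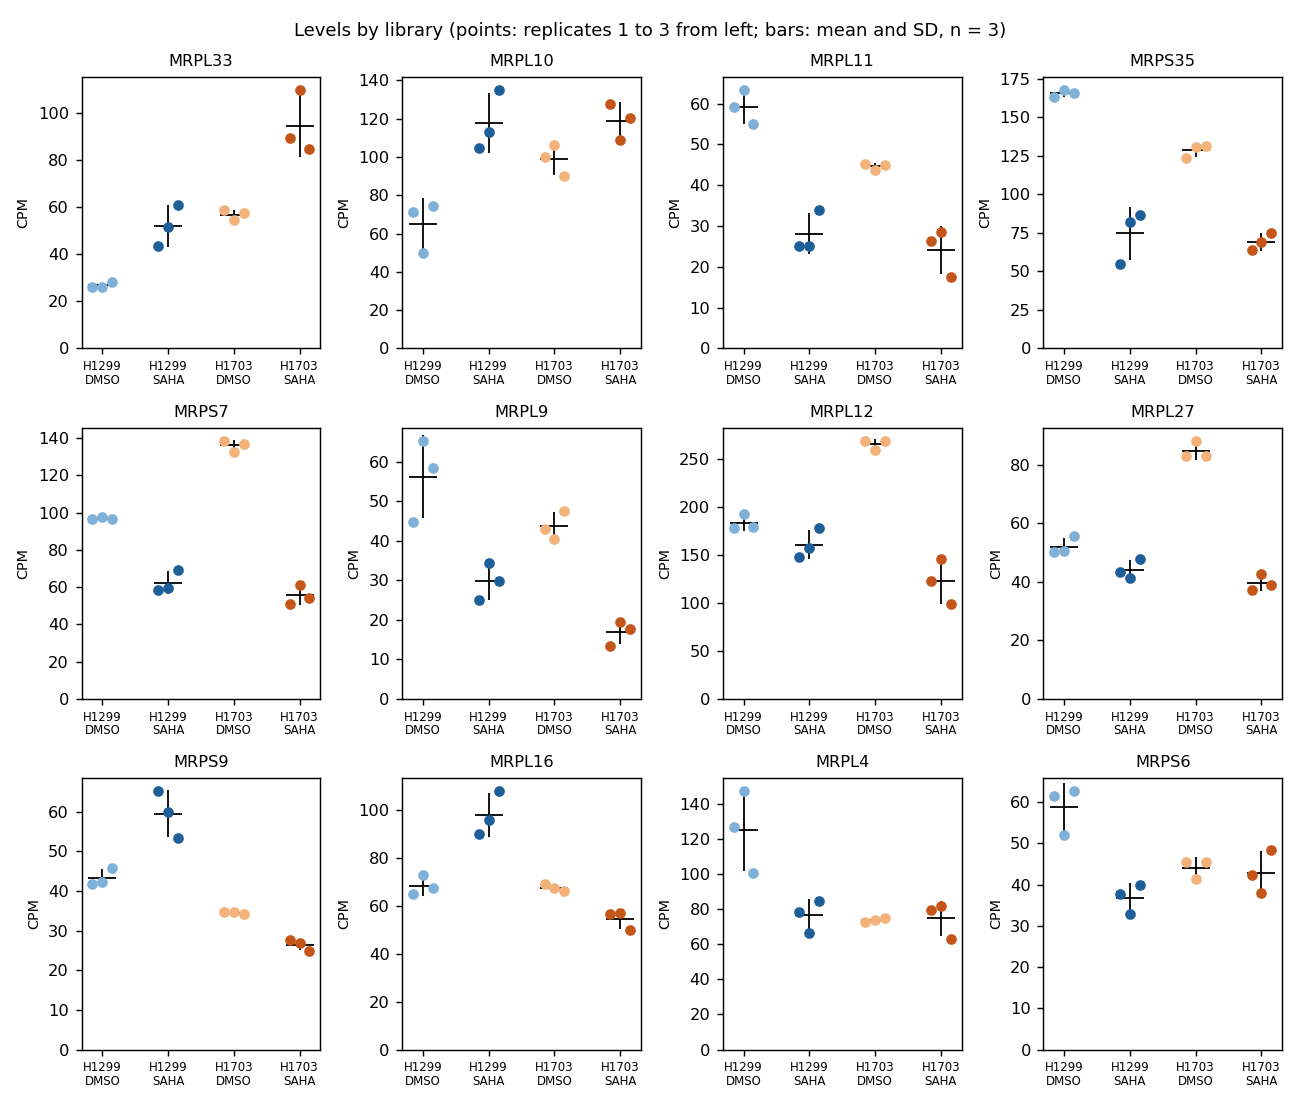
CPM of 12 members in each library, with points for replicates 1 to 3 and bars for the mean and SD. MRPL33 and MRPL10 were higher with SAHA in both lines, MRPL11, MRPS35, MRPS7 and MRPL9 lower in both, and MRPL12, MRPL27, MRPS9, MRPL16, MRPL4 and MRPS6 differed between lines.

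The 2 lines, which have separate controls, gave related responses. Of the 78 members, 23 (29.5%) were lower in both and 6 (7.69%) higher in both, whereas over the 15654 genes tested in both lines 21.9% were lower and 23.0% higher in both. Another 21 members (26.9%) were called in neither, beside 18.1% of all genes. The log2 fold changes had the same sign in 57 of 78 members, and across genes, which are not independent replicates, Pearson's r was 0.645 and Spearman's rho 0.657, given as a description. The sign count and correlations were not computed over all genes, so this likeness is not shown to be particular to the members. MRPL16 and MRPS9 (2.56% of the members) were higher in H1299 and lower in H1703, as were 2.89% of all genes, and no member had the reverse pair of calls, which 2.1% of all genes had.

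**Figure D4:**
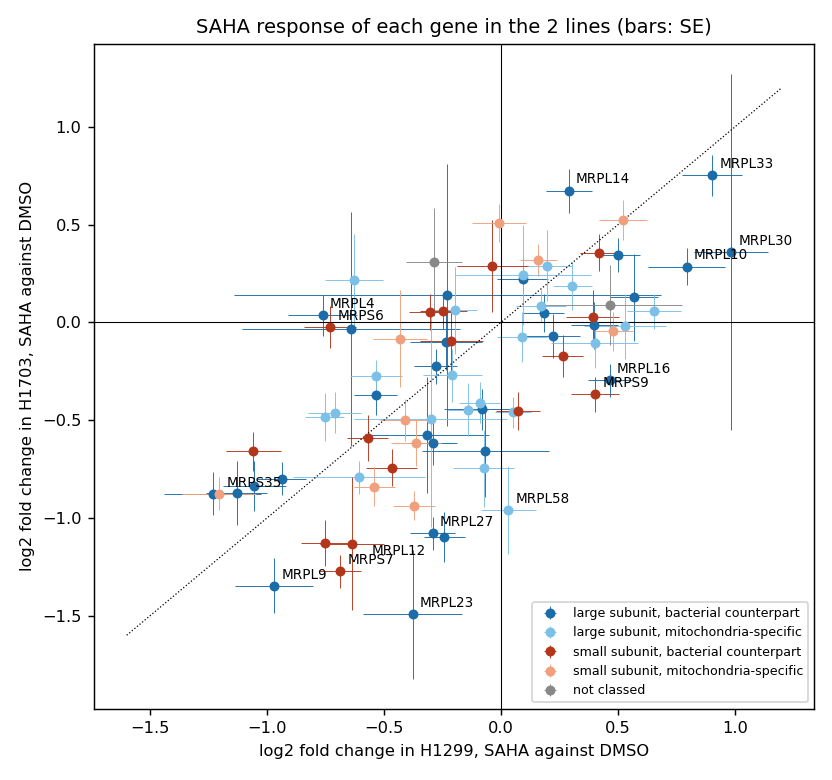
Log2 fold change with SAHA in H1299 (horizontal) against H1703 (vertical) for each member, coloured by role, with bars for 1 SE and a dotted line of equal change. Most points lie in the lower left or upper right, MRPS9 and MRPL16 lie at the lower right, and MRPL12, MRPL27 and MRPL58 lie well below the dotted line.

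Of the 78 members, 69 matched an entry of the RefSeq promoter table (GRCh38.p14, from 250 bases before to 50 after each start), and 11 had more than 1 window. Many promoters of nuclear mitochondrial genes are known to carry ETS sites, which GABP binds. The letters CCGGAAG, searched on both strands, occurred in 30 of 69 members (43.5%) and in 16.5% of 15842 protein-coding genes with a window. AAGATGG, a YY1 spelling, occurred in 24 (34.8%) against 7.90%. GCGCATG, an NRF1 spelling, occurred in 7 (10.1%) against 6.82%, and the E-box CACGTG in 9 (13.0%) against 10.9%. None of these spellings contains another. CCGGAAG occurred in 9 of the 21 matched members lower in both lines, and in 11 of the 14 that were higher in at least 1 line and lower in neither. The same counts were 8 and 2 for AAGATGG, 1 and 2 for GCGCATG, and 2 and 3 for CACGTG. That split and the spellings were chosen after values were seen, with longer YY1 and NRF1 spellings tried first, and a match is no binding site. The 100 bases just before the start are shown 5′ to 3′ on the gene's strand for 2 members that rose and 2 that fell in both lines, with CCGGAAG in capitals, because the same letters stand close to the start in all 4. MRPL33 is at chr2:27771619-27771718 (plus strand), MRPS10 at chr6:42217862-42217961 (minus), MRPL27 at chr17:50373185-50373284 (minus) and MRPL3 at chr3:131502972-131503071 (minus).
MRPL33: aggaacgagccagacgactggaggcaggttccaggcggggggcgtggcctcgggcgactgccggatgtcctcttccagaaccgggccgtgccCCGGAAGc
MRPS10: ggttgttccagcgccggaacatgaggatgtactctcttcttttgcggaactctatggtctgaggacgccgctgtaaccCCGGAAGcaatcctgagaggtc
MRPL27: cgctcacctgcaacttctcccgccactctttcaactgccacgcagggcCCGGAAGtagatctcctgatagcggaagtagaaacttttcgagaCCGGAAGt
MRPL3: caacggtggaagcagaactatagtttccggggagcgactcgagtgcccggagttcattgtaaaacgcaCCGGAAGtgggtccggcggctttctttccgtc

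Whether the response differed between lines (H1703 minus H1299) was tested in 1 fit over the 12 libraries, which shares all its samples with the comparisons above. It called 19 members lower (24.4%) and 4 higher (5.13%), 29.5% of the members. Of all 19105 genes 34.9% were called, 21.2% lower and 13.7% higher. Genes at or above the level of the lowest member gave 23.7% lower, close to the members, and 17.4% higher. The medians were -0.23 over members and -0.09 over all genes, and the member median was -0.13 without H1299 SAHA replicate 3. Scaling moved this split. The members gave 12 lower and 5 higher with mitochondrially encoded genes left out, and 28 lower and 2 higher with library totals alone. Over all genes the share of higher among called genes was 39.3%, 47.0% with the mitochondrially encoded genes left out and 30.5% with totals alone, while among members it was 17.4, 29.4 and 6.67%. Without H1703 DMSO replicate 1 the members gave 12 lower and 2 higher.

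MRPL12 and MRPL27 fell further in H1703 than in H1299. MRPL12, the stalk protein that recruits translation factors and the member with the highest FPKM, read 178, 193 and 179 CPM with DMSO and 148, 157 and 178 with SAHA in H1299. In H1703 it read 268, 260 and 269, then 123, 146 and 98.6. The H1299 groups nearly met at 178 while those of H1703 were far apart, and the difference between lines was -0.93 ± 0.16 (adjusted p = 0.000587). Its own fall was 1.10 ± 0.13 in H1703 and 0.24 ± 0.09 in H1299 on the log2 scale (adjusted p = 0.0361). The H1299 call was lost with the replicate block (adjusted p = 0.0515), and without DMSO replicate 2 (0.0928), DMSO replicate 3 (0.0502), SAHA replicate 1 (0.0879) or SAHA replicate 2 (0.0743). MRPL27, whose counterpart reaches toward the peptidyl transferase centre, read 83.2, 88.3 and 82.9 CPM with DMSO and 37.2, 42.7 and 39.1 with SAHA in H1703, against 50.2, 50.4 and 55.6 and 43.3, 41.2 and 48.0 in H1299. The line difference was -0.86 ± 0.13, and the H1299 fall (-0.29 ± 0.10) was not called without DMSO replicate 3 (adjusted p = 0.0761) or SAHA replicate 2 (0.0635).

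MRPL58, a peptidyl-tRNA hydrolase built into the large subunit, showed the contrast between lines too. Its libraries read 34.8, 29.8 and 38.5 CPM, then 35.4, 35.1 and 38.9 in H1299, and 46.6, 64.6 and 62.6, then 30.6, 36.8 and 20.8 in H1703. The lines differed by -1.06 ± 0.26 (adjusted p = 0.00639), with separate groups in H1703 only. MRPS12, of the decoding centre, gave 0.07 ± 0.09 in H1299 and -0.45 ± 0.10 in H1703 (difference -0.60 ± 0.14). MRPS30 gave 0.05 ± 0.08 and -0.46 ± 0.08 (difference -0.58 ± 0.10), and MRPS18A differed by -0.67 ± 0.15.

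MRPL16 and MRPS9 were called in opposite directions. MRPS9, counterpart of a small-subunit head protein, read 41.6, 42.4 and 45.9 CPM with DMSO and 65.2, 60.0 and 53.4 with SAHA in H1299, then 34.7, 34.8 and 34.2 and 27.6, 26.8 and 24.9 in H1703. Treated libraries lay above every control in H1299 and below every control in H1703. The line difference was -0.84 ± 0.13 (adjusted p = 0.000185). MRPL16, near the tRNA sites of the large subunit, read 64.7, 72.7 and 67.3, then 89.8, 95.9 and 108 CPM in H1299, and 69.0, 67.4 and 66.3, then 56.4, 57.0 and 49.8 in H1703. Its groups were apart in both lines, and the lines differed by -0.83 ± 0.13.

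The line difference was positive by call in 4 members, of which MRPL4, MRPS6 and MRPL42 fell in H1299 without a call in H1703. MRPL4, which lines the peptide tunnel, read 127, 147 and 101 CPM with DMSO and 78.4, 66.4 and 84.6 with SAHA in H1299, but 72.9, 73.8 and 74.9, then 79.6, 81.6 and 63.2 in H1703. Only the H1299 groups were separate, and the line difference was 0.73 ± 0.19 (adjusted p = 0.00941). MRPS6 fell by 0.73 ± 0.11 in H1299 and gave -0.02 ± 0.11 in H1703, a difference of 0.64 ± 0.16, but its row shares 265 exon bases on the same strand with SLC5A3, which was lower by -1.90 and -1.41. MRPL42 (0.77 ± 0.28, adjusted p = 0.0483) and MRPS33 (0.45 ± 0.15, adjusted p = 0.0320) were marginal, as was MRPL23 on the other side (-1.19 ± 0.42, adjusted p = 0.0485). The call of MRPL42 was lost without any 1 of 9 libraries (H1299 DMSO 1, 2 and 3, H1299 SAHA 1 and 2, H1703 DMSO 1 and 3, H1703 SAHA 2 and 3), with values of 0.61 to 0.82 and adjusted p of 0.0625 to 0.109. MRPS33 lost its call without any 1 of 7 (H1299 DMSO 1 and 3, H1299 SAHA 2, H1703 DMSO 1 and 3, H1703 SAHA 1 and 2), at 0.36 to 0.44 and adjusted p of 0.0626 to 0.0757. MRPL23 lost it without any 1 of 9 (H1299 DMSO 2 and 3, H1299 SAHA 1, 2 and 3, H1703 DMSO 1 and 2, H1703 SAHA 1 and 3), at -1.31 to -0.93 and adjusted p of 0.0508 to 0.113. In H1703 alone, MRPL42 became called without DMSO replicate 2 (0.51, adjusted p = 0.0139).

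Under DMSO, H1703 was higher than H1299 in 19 members and lower in 26. These are 57.7% of the members, 24.4% higher and 33.3% lower, where 66.5% of all 19105 genes were called, 34.3% higher and 32.2% lower. The median over members was -0.10, and it ran from -0.15 without H1299 DMSO replicate 3 to -0.057 without H1299 DMSO replicate 2, with -0.061 without H1703 DMSO replicate 1. With library totals alone the counts were 12 higher and 38 lower, so higher calls went from 42.2 to 24.0% of the called members, and from 51.6 to 42.4% of all called genes. The summed share was 0.600 ± 0.0208% in H1299 and 0.498 ± 0.00698% in H1703 (exact permutation p = 0.1, the smallest possible). MRPL17, of the tunnel exit, was highest in H1703 relative to H1299, at 113, 62.7 and 85.5 CPM against 26.4, 49.2 and 28.8, and those groups did not overlap (log2 difference 1.32 ± 0.29). MRPL33 was higher by 1.08 ± 0.13, MRPL24 by 1.01 ± 0.12 and MRPS26 by 0.95 ± 0.10. BABAM2, which shares exon bases with the MRPL33 row, had counts of 940, 1108 and 805 in H1703 against 497, 501 and 467 in H1299. On the other side, MRPS22 read 24.7, 25.3 and 26.5 CPM in H1703 against 51.2, 54.1 and 55.2 in H1299 (-1.07 ± 0.08). MRPS22, a small-subunit protein particular to mitochondria, shares 6378 exon bases on opposite strands with COPB2, and the labels conflict on whether libraries kept strand. Under DMSO, COPB2 had counts of 2980, 3189 and 2672 in H1703 against 3657, 3641 and 3932 in H1299. MRPS18B (-0.997 ± 0.08), MRPL47 (-0.90 ± 0.14), MRPL51 (-0.85 ± 0.11) and MRPL40 (-0.84 ± 0.11) were lower too. MRPL47 shares 123 exon bases with ACTL6A on the opposite strand. Under DMSO, ACTL6A had counts of 854, 1115 and 888 in H1703 against 1802, 1902 and 1934 in H1299. MRPL51 shares 383 exon bases with NCAPD2 on the opposite strand. Under DMSO, NCAPD2 had counts of 3859, 4640 and 3936 in H1703 against 8191, 9235 and 8708 in H1299. With SAHA, NCAPD2 had log2 fold changes of -1.30 in H1299 and -1.52 in H1703. The part of overlapping rows in these line differences was not tested.

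Per length, MRPL12 led the members. In deposited FPKM (counts scaled to gene length and library total) it averaged 193 ± 5.92 in H1299 with DMSO, 171 ± 12.1 with SAHA, 245 ± 6.58 in H1703 with DMSO and 106 ± 20.6 with SAHA. MRPL41, particular to mitochondria, followed with an average of 101 FPKM over the 12 libraries, and MRPS12 with 86.7. The order of these 2 depended on the line: under DMSO, MRPL41 stood at 120 ± 11.6 and MRPS12 at 90.7 ± 3.09 in H1299, but at 65.2 ± 2.47 and 93.1 ± 1.80 in H1703. MRPL41 was not called in either line (0.20 ± 0.11 and 0.29 ± 0.18), and H1703 values with 1 library left out ran from 0.070 without SAHA replicate 2 (adjusted p = 0.636) to 0.46 without SAHA replicate 3 (adjusted p = 0.00760). In H1299 they ran from 0.090 to 0.27. With library totals alone and all libraries kept, MRPL41 was called higher in H1299 (0.27, adjusted p = 0.0397). The lowest were MRPL48 at 3.01, MRPL55 at 2.58 and MRPL42 at 2.05 FPKM. MRPL48 fell in both lines (-0.71 ± 0.11 and -0.46 ± 0.10), whereas MRPL55 gave 0.47 ± 0.31 and 0.09 ± 0.20. The length behind the FPKM of MRPL42, worked back from its counts and FPKM, is 21705 bases. What that length covers is not stated, and such levels depend on it. MRPL45, which ties the ribosome to the inner membrane, fell by 0.54 ± 0.11 and 0.28 ± 0.08 on the log2 scale, and its H1703 value of -0.22 without SAHA replicate 1 was not called (adjusted p = 0.0532). MRPL44, with a ribonuclease-like fold, gave 0.17 ± 0.11 and 0.08 ± 0.08, called in neither line. MRPS36 gave -0.29 ± 0.12 and 0.31 ± 0.28, the latter called at 0.58 without SAHA replicate 3 (adjusted p = 0.00774).

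A few members varied between replicates far more than the rest. The median within-group coefficient of variation was 5.99% in H1299 with DMSO, 10.7% with SAHA, 6.24% in H1703 with DMSO and 12.6% with SAHA, and 5, 8, 12 and 10 members exceeded 25%. MRPL30 read 26.8, 20.1 and 27.4 CPM in H1703 with DMSO, then 8.93, 13.1 and 72.2 with SAHA. The third SAHA library stood apart, and without it MRPL30 was lower by -1.15 (adjusted p = 0.00249) rather than uncalled at 0.36 ± 0.91. In H1299 the same gene was higher by 0.98 ± 0.16, from 18.2, 11.9 and 13.1 CPM to 30.4, 28.3 and 30.0. Its row shares 564 exon bases on the same strand with AC079447.1, which was higher in H1299 by 0.55 and gave -0.14 in H1703. In H1703 with SAHA, AC079447.1 had counts of 218, 196 and 41, where MRPL30 had 134, 226 and 1098. The third library was thus low in 1 row and high in the other. How reads were divided between these rows is not stated, and its part in the MRPL30 values was not tested. MRPL34 had counts of 536, 1952 and 592 in H1299 with DMSO and 397, 407 and 1894 with SAHA, and MRPL36 had 670, 748 and 727, then 825, 250 and 318. MRPL49 had 1676, 467 and 911 in H1703 with DMSO and 392, 597 and 362 in H1299 with DMSO. No one library was high in all 4 of these genes, which were singled out after their values were seen. The MRPL49 call between lines under DMSO (1.31 ± 0.49, adjusted p = 0.0412) was lost with the replicate block (0.0554). It was also lost without H1299 DMSO replicate 1 (0.109) or 3 (0.125), H1299 SAHA replicate 3 (0.0571), H1703 DMSO replicate 1 (0.170, with a value of 0.76) or 3 (0.0722), or H1703 SAHA replicate 2 (0.0502) or 3 (0.0571). MRPL49 shares 356 exon bases with SYVN1 on the opposite strand. Under DMSO, SYVN1 had counts of 865, 957 and 728 in H1703 against 478, 540 and 455 in H1299. The part of that overlap in the MRPL49 difference was not tested.

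**Figure D5:**
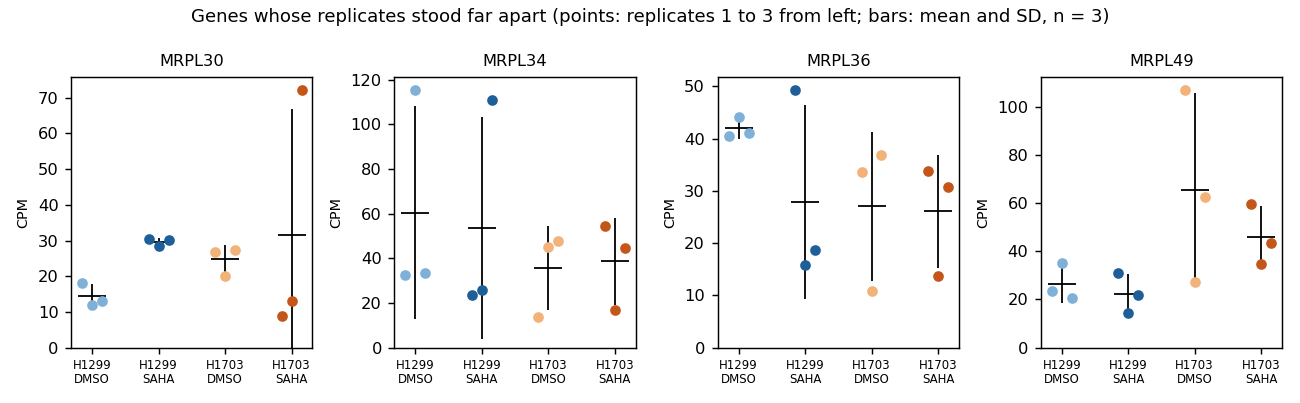
CPM of MRPL30, MRPL34, MRPL36 and MRPL49 in each library, with points for replicates 1 to 3 and bars for the mean and SD. Single libraries carry most of the spread, such as the third H1703 SAHA library for MRPL30 at 72.2 CPM.

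Overlapping rows touch many members. In the tables' coordinates 48 members overlap another row and 29 overlap a row with 10% or more of their own mean count. Without those 29, 49 members gave 19 lower (38.8%) and 9 higher (18.4%) in H1299 and 23 lower (46.9%) and 5 higher (10.2%) in H1703. Among the 57 members with a coefficient of variation of 25% or less in all groups the counts were 25 and 15 (43.9 and 26.3%), then 28 and 8 (49.1 and 14%). Both subsets were chosen after the data were seen. Over all genes tested 30.4% were lower and 33.3% higher in H1299, and 32.6% and 34.7% in H1703. Genes at or above the lowest member level gave 39.4% lower and 27% higher in H1299, and 37.9% and 32.7% in H1703. The 75 pseudogene rows of the family held 0.278% as many counts as the members.

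Genes that work with the ribosome were read from fixed lists. Over all genes tested, 30.4% were lower and 33.3% higher in H1299, and 32.6% and 34.7% in H1703. Lower calls made up 52% of the ribosome assembly factors in H1299 and 60% in H1703. They made up 25% and 65% of the mitochondrial tRNA synthetases, and 35.3% and 29.4% of the translation factors. Factors of ribosome assembly had 13 of 25 lower and 5 higher in H1299 and 15 lower and 3 higher in H1703 (medians -0.34 and -0.57). RCC1L, an assembly factor, fell by 1.66 ± 0.09 and 1.40 ± 0.08 on the log2 scale, from 181 ± 11 to 59.5 ± 5.45 CPM in H1299, and MPV17L2, another assembly factor, rose by 1.42 ± 0.09 in H1703. The H1299 count of lower assembly factors was 8 in one fit over the 12 libraries and 8 without DMSO replicate 2. Mitochondrial tRNA synthetases had 5 lower and 3 higher of 20 in H1299 and 13 lower and 3 higher in H1703. Translation factors were mixed, with 6 lower and 3 higher of 17 in H1299 and 5 and 5 in H1703 (1 higher in H1299 without DMSO replicate 1). GFM2, a factor of ribosome recycling, rose by 1.18 ± 0.11 and 0.87 ± 0.08, while TACO1, which activates translation of a cytochrome oxidase message, fell by 1.49 ± 0.09 in H1703. Of 5 further ribosomal proteins with other symbols, GADD45GIP1 fell in both lines (-0.29 ± 0.11 and -0.96 ± 0.21), and DAP3 rose in H1703 (0.65 ± 0.11). The H1299 call of GADD45GIP1 was lost with library totals alone, with DESeq2 and in the fit over 12 libraries. Leaving out 1 H1299 library gave 0 lower (DMSO replicate 2, SAHA replicate 1 or SAHA replicate 2) or 2 (DMSO replicate 1 or SAHA replicate 3). In H1703 the lower count was 3 with totals alone and 2 without SAHA replicate 2.

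Genes of mitochondrial DNA copying and transcription had 6 lower and 2 higher of 17 in H1299 and 9 and 4 in H1703, the higher count being 2 with library totals alone and without DMSO replicate 1, DMSO replicate 3 or SAHA replicate 1. MGME1, a nuclease of mitochondrial DNA, fell by 1.37 ± 0.09 in H1703, and POLG2 rose in both lines. Among 10 regulators of nuclear mitochondrial genes 5 were lower in each line, and 1 and 2 were higher. Lower calls made up 50% of these regulators in each line, and 35.3% and 52.9% of the copying and transcription genes. Over all genes tested the lower share was 30.4% in H1299 and 32.6% in H1703. NRF1 fell by 1.0 ± 0.10 in H1299, PPRC1 by 1.5 ± 0.08 in H1703, and the low-level coactivator PPARGC1A rose from 1.93 ± 0.468 to 6.44 ± 2.43 CPM in H1299. The H1703 count of 2 was 1 with library totals alone, with no filter on low counts, and without any 1 library of DMSO replicates 1, 2 and 3 and SAHA replicates 1 and 2. In H1299 the count of 1 was 2 without DMSO replicate 3. Mitochondrially encoded messages, which this ribosome translates, were higher in 13 of 13 cases in H1299 and 12 of 13 in H1703 (medians 0.76 and 0.80). Both mitochondrial ribosomal RNAs were higher in each line, but polyadenylated RNA was sequenced, so their total amount was not measured. Nuclear complex I subunits had 10 lower and 5 higher of 37 in H1299 (8 higher with library totals alone, and 3 without DMSO replicate 1, 2 or 3 or SAHA replicate 3) and 15 and 9 in H1703. Lower calls made up 27% and 40.5% of these subunits, against 30.4% and 32.6% of all genes. Cytosolic ribosomal proteins had 13 lower and 21 higher of 88 tested in H1299, and 11 lower and 29 higher of 89 in H1703, where 20 were lower with library totals alone, 7 lower without DMSO replicate 1 or SAHA replicate 1, and 19 higher without DMSO replicate 3. Higher calls made up 23.9% and 32.6% of these genes, against 33.3% and 34.7% of all genes. Lower calls made up 14.8% and 12.4%.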

How the data were processed

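Polyadenylated RNA of 12 libraries was sequenced. The authors deposited 1 table per line with raw counts and FPKM per gene, per the file headers. Build GRCh38 and the tools HISAT2 2.1.0, StringTie 1.3.3b, edgeR 3.30.3, fastp and FastQC 0.11.9 appear in the submitters' processing notes without roles. Which tool counted, with which strand setting and annotation, is not given in the sources used. The labels name both a directional kit and an un-stranded library. The deposited FPKM equals the count over the column total and a gene length in 100% of 304680 values, within 1%. FPKM was used for levels only.

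Counts were tested with edgeR 4.0.16 (R 4.3.3): filterByExpr (minimum count 10, total 15), TMM, robust quasi-likelihood fits, Benjamini-Hochberg over all genes, calls at an adjusted p under 0.05. Each SAHA comparison was fitted within its line, and the line comparisons over all 12 libraries. CPM is the count scaled to the library total times its TMM factor over the 12 libraries. Control columns named NC were taken as DMSO, the only other group of each line. Scripts were tested on simulated data.

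The members, lists and named-gene rule were chosen with earlier results of these data known. Named were the 5 most changed called members per direction and comparison (6 for the line difference), opposite calls, the 3 highest and lowest by FPKM, a fixed set and leading genes of the lists, of which 1 is not reported here. The pattern for cytosolic ribosomal proteins also took in S6 kinase genes, which were left out after this was seen. Strands and shared exon bases came from GENCODE v44, promoters from RefSeq. The labels give the replicate number as a batch, and whether same-numbered samples were processed together is not stated beyond that. Same-numbered libraries correlated by only -0.0310 to 0.0333 in their deviations from group means. Alternatives were DESeq2 1.42.0 size factors and test, library totals alone, mitochondrially encoded genes left out, no filter, the replicate block, one fit over 12 libraries and each library left out.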

Additional observations from a re-analysis of the deposited data

Results flagged for a closer look

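The SAHA effect differed between lines, by the test of the difference itself (H1703 minus H1299, log2 scale), in 23 members. The 10 with the most positive or most negative values, by the rule for named genes, are given here. The values were 0.77 for MRPL42, 0.73 for MRPL4, 0.64 for MRPS6 and 0.45 for MRPS33. They were -1.19 for MRPL23, -1.06 for MRPL58, -0.93 for MRPL12, -0.86 for MRPL27, -0.84 for MRPS9 and -0.83 for MRPL16. MRPL42, MRPS33 and MRPL23 were close to the threshold, with adjusted p of 0.0483, 0.0320 and 0.0485 in edgeR's quasi-likelihood test.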

How the results depend on the processing

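The counts of members called in either SAHA comparison stayed within 1.5 times of their values under every alternative run. Calls of single members changed more. Of 78 members, 68 kept their H1299 call without DMSO replicate 3, and 73 their H1703 call with library totals alone. Between lines under DMSO 59 kept it with totals alone, and for the line difference 66 did without H1299 SAHA replicate 2. Between lines under DMSO, 12 members were higher with library totals alone, against 19. For the line difference 12 were lower with DESeq2 size factors and 12 with mitochondrially encoded genes left out, against 19, and 2 were higher with library totals alone and 2 with no filter, against 4. Leaving out 1 library gave 2 to 5 higher and 12 to 21 lower for the line difference. The member median moved to -0.30 in H1703, -0.29 between lines and -0.33 for the line difference with library totals alone, and to -0.14 for the line difference with mitochondrially encoded genes left out. The median over all genes shifted by 0.15 (H1299) and 0.11 (H1703) with no filter, by 0.10 in H1299 in one fit over 12 libraries, and by -0.10, -0.17 and -0.10 in H1703, between lines and for the line difference with totals alone. The cause of these moves was not tested.

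Signs were followed for the named members, and turned only in those that were not called. MRPS33 in H1299 gave 0.0077 with DESeq2 size factors, 0.062 with totals alone, 0.0079 with DESeq2 and 0.047 in one fit. With totals alone H1703 gave -0.047 for MRPS18A, -0.068 for MRPL4 and -0.021 for MRPL44. MRPL30 in H1703 gave -0.22 with the replicate block. With 1 library left out, values in H1299 ran from -0.11 to 0.08 for MRPS33, -0.079 to 0.10 for MRPL58, -0.0042 to 0.069 for MRPS30 and -0.034 to 0.13 for MRPS12. In H1703 they ran from -0.034 to 0.33 for MRPL1, -0.034 to 0.14 for MRPL4, -0.12 to 0.055 for MRPS6 and -1.15 to 0.79 for MRPL30. Among named members the replicate block ended the calls of MRPL12 in H1299 and MRPL49 between lines and changed no other call. Other calls lost were MRPL12 (adjusted p = 0.0760) and MRPL27 (0.0673) in H1299 and MRPL10 in H1703 (0.107) with totals alone, MRPL49 between lines with totals alone (0.0708), without mitochondrially encoded genes (0.0502) and without the filter (0.0866), MRPL12 with DESeq2 (0.0676), MRPL30 (0.215), MRPS2 (0.0818) and MRPL12 (0.176) in H1299 and MRPL10 in H1703 (0.11) in one fit, and MRPS2 in H1703 with no filter (0.0817). For the line difference MRPL23 was lost with DESeq2 size factors (0.0599), without mitochondrially encoded genes (0.0621) and without the filter (0.144). MRPL42 and MRPS33 were lost with totals alone (0.0725 and 0.0879) and without the filter (0.112 and 0.0630). With 3 libraries a group, an uncalled gene is not shown to be unchanged.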
